A study of Mus musculus with 16 samples.

Results

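Messenger RNA levels of 8 genes that mark fetal liver or liver tumours were examined in mouse livers with induced primary liver cancer. The genes were Afp, Igf2, Spink1, Golm1, Gpc3, Msln, Prom1 and Cd44, taken by name from a table of 16793 genes, and 8 of 8 were in it. The 16 polyadenylated RNA libraries came from livers of wild-type mice and formed 4 groups of 4. OVX livers came from ovariectomized females, which lack the main source of estrogen, and Sham livers from females that had sham surgery. LCAT livers overexpressed lecithin-cholesterol acyltransferase, a plasma enzyme that hepatocytes secrete and that esterifies cholesterol on lipoproteins, and Vec livers carried the empty vector. All 4 groups carried the induced cancer. The sources used here do not give the promoter of the vector, the sex of the mice in the vector experiment or whether tumour or other liver tissue was taken. A larger share of tumour tissue and a higher level per tumour cell therefore cannot be told apart, nor can fewer cells of a type and less RNA per cell.

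Oncofetal genes are active in the fetal liver, are silenced in hepatocytes after birth and are often switched on again in hepatocellular carcinoma. Afp and Igf2 are the classic examples of this pattern, and Gpc3 is a cell surface marker of liver cancer with little protein in healthy adult liver. Spink1 and Golm1 encode secreted proteins studied as serum markers of liver tumours, and Prom1, Cd44 and Msln encode surface proteins that also mark bile duct, blood or mesothelial cells outside tumours.

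RefSeq promoter windows, from 250 bases before to 50 after a start on GRCm38.p6, were matched for 6 of the 8 genes, with 4 windows for Igf2 and 2 for Prom1. The following 3 windows are shown because their base composition differs: 1 is poor and 2 are rich in G and C. The Afp window, chr5:90490464-90490763 on the plus strand, had 40% G and C, at percentile 10.1 of all 32851 windows, whose median was 52.7%. The Igf2 window nearest the gene's 3′ end, chr7:142657447-142657746 on the minus strand, had 63.3%, and the Gpc3 window, chrX:52613925-52614224 on the minus strand, had 70.7%. Each is written 5′ to 3′ along the gene.
Afp: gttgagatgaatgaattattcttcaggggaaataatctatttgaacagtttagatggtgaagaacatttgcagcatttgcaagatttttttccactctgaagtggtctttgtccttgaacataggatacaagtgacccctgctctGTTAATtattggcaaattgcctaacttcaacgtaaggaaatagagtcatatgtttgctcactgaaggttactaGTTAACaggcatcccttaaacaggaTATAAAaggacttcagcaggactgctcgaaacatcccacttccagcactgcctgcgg
Igf2: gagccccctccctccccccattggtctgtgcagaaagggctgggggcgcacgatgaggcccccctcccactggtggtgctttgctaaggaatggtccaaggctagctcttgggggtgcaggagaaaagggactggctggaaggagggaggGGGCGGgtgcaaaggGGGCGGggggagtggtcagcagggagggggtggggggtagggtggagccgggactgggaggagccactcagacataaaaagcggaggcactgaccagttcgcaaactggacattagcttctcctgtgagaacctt
Gpc3: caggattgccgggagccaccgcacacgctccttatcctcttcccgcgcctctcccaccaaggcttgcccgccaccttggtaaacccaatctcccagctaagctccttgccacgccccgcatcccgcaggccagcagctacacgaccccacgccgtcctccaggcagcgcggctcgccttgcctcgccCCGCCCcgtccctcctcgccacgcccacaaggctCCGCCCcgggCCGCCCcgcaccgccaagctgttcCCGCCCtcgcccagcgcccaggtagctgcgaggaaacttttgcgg
Capitals mark matches to 4 short motifs searched on both strands. In Afp the motif GTTAAT begins 128 bases before the start of the gene in GENCODE, and GTTAAC begins 55 bases before it. Both are forms of the half-site that the hepatocyte factor HNF1 recognises. The TATA box motif TATAAA begins 30 bases before that start. In Igf2 and Gpc3 the capitals mark GGGCGG, the core of the GC box, which reads CCGCCC on the opposite strand. Of all 32851 windows, 7.10% held GTTAAT, 3.05% GTTAAC, 13.6% TATAAA and 35.7% GGGCGG. Among the windows of the 6 genes, both forms of the HNF1 half-site were found in that of Afp alone.

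The values were normalised read counts, from which whole reads were recovered. Recovered depth ran from 17782178 to 27110501 reads in OVX, from 21428827 to 25850761 in Sham, from 12562943 to 19248762 in LCAT and from 14412808 to 20659336 in Vec libraries. All 13 hepatocyte markers in the table passed the filter on low values in both comparisons. Among genes that differed at least 2-fold between libraries 1 and 4 of a group, library 2 stood at a median of 0.765 of the way from library 4 to library 1 in OVX (665 genes), 0.655 in Sham (1307 genes) and 0.426 in LCAT (2418 genes). Library 3 stood at 0.619, 0.456 and 0.387 in the same order of groups, and the Vec libraries 2 and 3 at 0.592 and 0.795 among 192 genes. The genes were chosen for their difference between libraries 1 and 4, so a median between them says little by itself. From the 25th to the 75th percentile the values spanned 0.670 to 0.840 for library 2 in OVX, 0.565 to 0.746 in Sham and 0.317 to 0.577 in LCAT, but 0.0691 to 0.962 in Vec. No label states that the libraries of a group are separate animals, so p-values measure only the spread between these libraries. With libraries 1 and 4 of each group alone, none of the 8 genes passed the test in either comparison. In that setting limma called 0 of all genes after ovariectomy and 3 after LCAT, so its count says little about single genes. At an unadjusted p below 0.05 it held 4 of the 8 genes after ovariectomy and 2 after LCAT, and 1688 and 2165 of all genes.

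Lcat, the overexpressed gene, checks the vector labels. Its normalised read counts were 5014, 5074, 5106 and 4531 in LCAT livers, against 3348, 2926, 4521 and 2980.1 in Vec livers. The groups were close but did not overlap, with a log2 fold change of 0.54 (SE 0.141, adjusted p = 0.0168, limma). That call was lost with equal library totals (adjusted p = 0.0679) and without Vec library 2 (0.0522) or Vec library 4 (0.0527). In OVX livers Lcat had 3637, 3458, 3399 and 3061, against 5714, 5656, 5578 and 5701 in Sham livers, a log2 fold change of -0.74 (SE 0.0674, adjusted p = 0.000167, limma).

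Of the 8 genes, 7 rose after ovariectomy, 0 fell and Cd44 did not pass (limma, adjusted p below 0.05). Every one of the 8 had a positive log2 fold change there, so 0 fell at an unadjusted p below 0.05 too. All 8 had passed the filter of both comparisons, which asked for an average of 10 or more across their 8 libraries. Of all genes tested, 13059 in number, 39.6% were called, 19.0% higher and 20.6% lower. The median log2 fold change of the 8 genes was 1.14, against 0.00 for all genes tested. In 5 of the 8 genes the OVX libraries all lay above the Sham libraries, which held for 18.9% of all genes tested; groups did not overlap in either direction in 39.0%, and OVX lay below in 20.1%. After LCAT overexpression the 8 genes divided: 2 rose (Msln and Prom1), 2 fell (Igf2 and Golm1) and 4 did not pass. There 40.7% of 13095 genes were called, 20.2% higher and 20.5% lower, so 4 of 8 is close to the share of all genes. The median log2 fold change of the 8 genes after LCAT was -0.27, again against 0.00, and in 4 of the 8 the groups did not overlap. That held for 40.5% of all genes, with LCAT above in 20.2% and below in 20.3%.

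**Figure D1:**
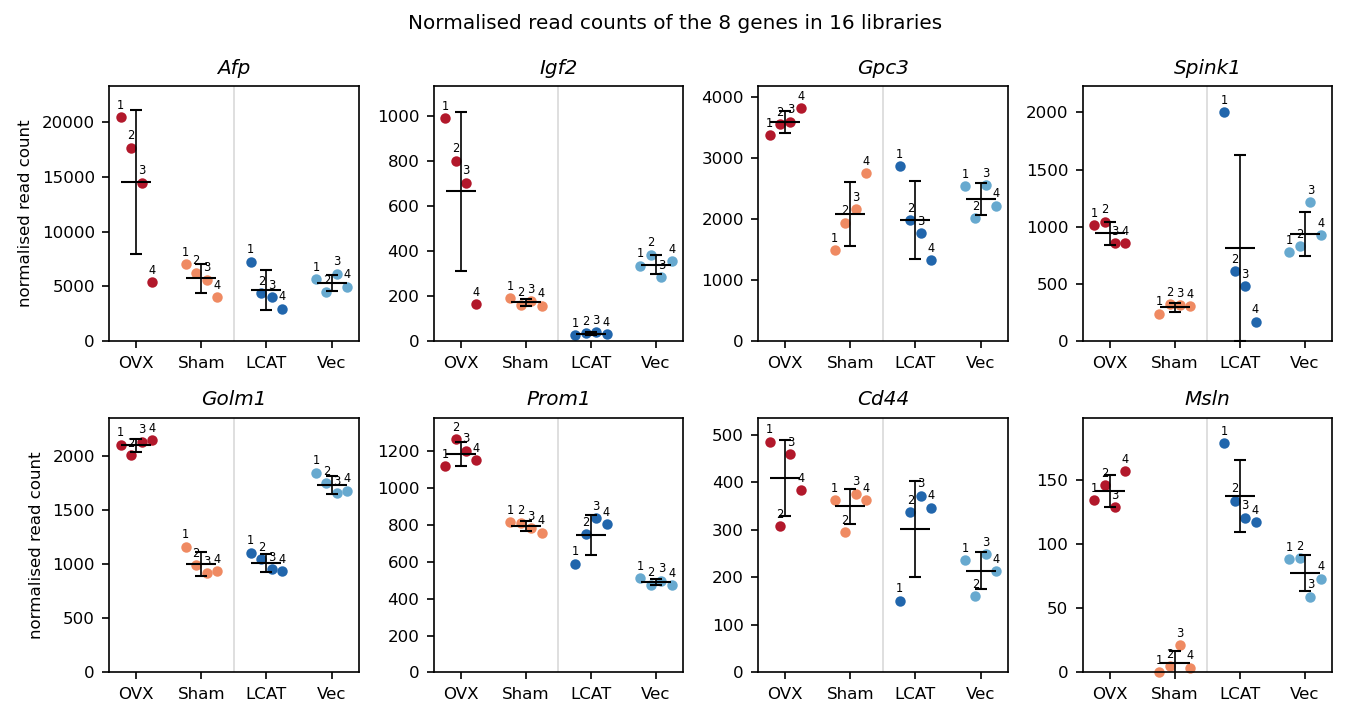
Normalised read counts of the 8 genes in each of the 16 libraries, with 1 panel per gene and its own axis from 0. Points are libraries, numbered 1 to 4 within each group, and bars give the mean ± SD of 4 libraries. OVX library 4 lies far below the other OVX libraries for Afp (5344) and Igf2 (162), and LCAT library 1 far above the other LCAT libraries for Spink1 (2005).

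**Figure D2:**
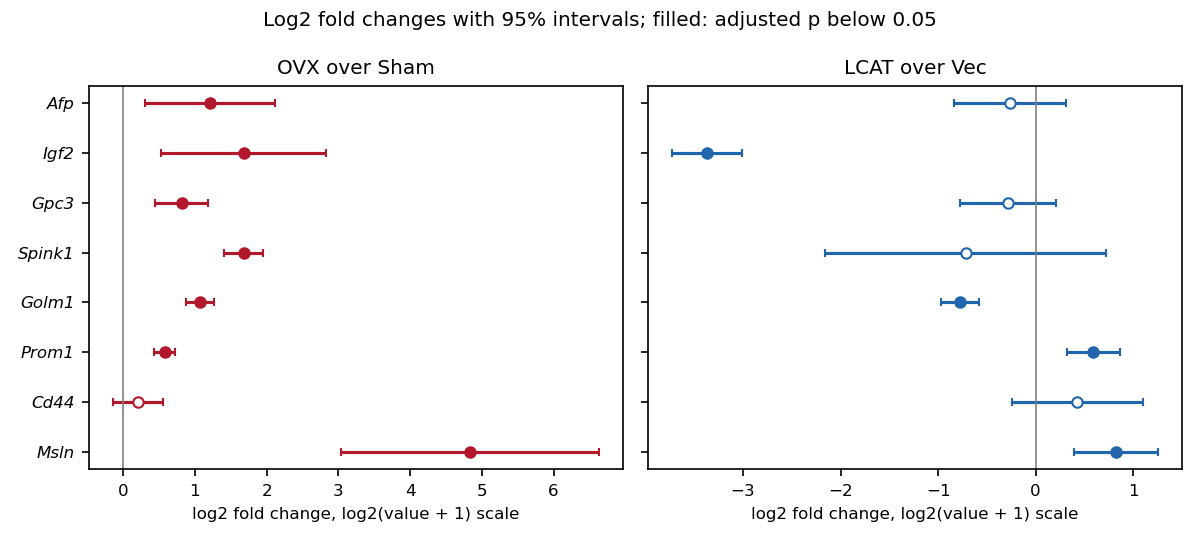
Log2 fold changes, computed as log2(value + 1), with 95% intervals from limma, OVX over Sham on the left and LCAT over Vec on the right, 4 libraries per group. Filled points passed an adjusted p of 0.05. Filled points lie to the right of 0 for 7 genes after ovariectomy, but on both sides of 0 after LCAT, where Igf2 stands at -3.37.

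Alpha-fetoprotein, the product of Afp, is the main plasma protein of the fetus and a serum marker of hepatocellular carcinoma. Its gene covers 90490737 to 90508907 of chromosome 5, plus strand, on GRCm38 (mm10), the build of all positions here. Afp had 20479.8, 17677, 14478 and 5344 normalised reads in OVX libraries 1 to 4, against 7013, 6235, 5607 and 3985 in Sham libraries 1 to 4. The first 3 OVX libraries lay above every Sham library, but OVX library 4 lay below 3 of the 4, so the groups overlapped. On the log2 scale the change was 1.21 (SE 0.398, adjusted p = 0.0405, limma), with an exact two-sided permutation p of 0.114. The call was near the threshold: it was lost without any single Sham library or without OVX library 1, 2 or 3, at adjusted p-values of 0.0533 to 0.103. Without OVX library 4 the log2 fold change was 1.64 (adjusted p = 0.00102).

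In LCAT livers Afp had 7238, 4344, 4023 and 2937 normalised reads, against 5665, 4458, 6148 and 4952 in Vec livers. LCAT library 1 was the highest of these 8 and the other LCAT libraries were the 3 lowest. The log2 fold change was -0.26 (95% interval -0.84 to 0.31, adjusted p = 0.424, limma), and without LCAT library 1 it was -0.50 (adjusted p = 0.0328).

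Set against albumin, the adult plasma protein encoded beside Afp, the surgery groups did not overlap. Alb itself fell after ovariectomy (log2 fold change -0.51, adjusted p = 0.0149, limma), so the ratio of Afp to Alb reads holds both changes. In OVX library 4 Alb was 1813046, below the lowest Sham value of 2093519, while Afp lay within the Sham range. There were 11.2, 9.60, 8.33 and 2.95 Afp reads per 1000 Alb reads in OVX livers, against 2.30, 2.28, 2.27 and 1.90 in Sham livers (exact permutation p = 0.0286, two-sided, which is the lowest p that groups of 4 permit). The ratio was 3.49, 2.46, 2.30 and 1.81 in LCAT livers, against 2.84, 2.48, 3.23 and 2.67 in Vec livers (exact permutation p = 0.400), and there the groups overlapped. Sham livers kept a nearly constant ratio although Afp itself varied 1.76-fold among them. Of 21 listed relatives and regulators of Afp, 5 rose and 7 fell after ovariectomy, a split that turned to 7 and 4 with equal library totals. Gc, the vitamin D-binding protein of the albumin family, had a log2 fold change of -0.56 (adjusted p = 0.00194, limma), and Cebpb, a liver transcription factor gene, one of -0.88 (adjusted p = 0.00338). After LCAT 3 of the 21 rose and 1 fell, and 0 rose and 4 fell with equal totals. The 1 that fell in both was Onecut1, a hepatocyte factor gene with a log2 fold change of -1.44 (adjusted p = 0.000679, limma).

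Igf2 encodes insulin-like growth factor 2, a fetal growth factor that is imprinted and signals through the IGF1 and insulin receptors. It covers 142650766 to 142666816 of chromosome 7, minus strand. It shares 3596 exon bases with the predicted gene Gm49394 on the same strand, which is not in the table, so reads of the pair could not be separated here. Igf2 had 990.3, 802, 703 and 162 normalised reads in OVX livers, against 191, 161, 177 and 156 in Sham livers. As for Afp, the first 3 OVX libraries were high and OVX library 4 was among the Sham values. The log2 fold change was 1.68 (SE 0.504, adjusted p = 0.0289, limma) with an exact permutation p of 0.0857. The call was lost without OVX library 1, 2 or 3 or Sham library 1, 2 or 3 (adjusted p 0.0505 to 0.0782), and the change was 2.26 without OVX library 4 (adjusted p = 7.07e-05).

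In LCAT livers Igf2 had 26.4, 34.1, 38.6 and 29.4 normalised reads, against 335, 384, 284 and 355 in Vec livers. All 4 LCAT libraries lay far below every Vec library, with a log2 fold change of -3.37 (SE 0.156, adjusted p = 3.72e-06, limma, exact permutation p = 0.0286). In the order of changes this was the 75th lowest of 13095 genes. LCAT library 1, which stood apart for other genes, held the lowest of these values, close to LCAT library 4. The LCAT values rested on 17, 31, 37 and 19 recovered reads, so their order within the group is uncertain. From high to low the groups were ordered OVX, Vec, Sham and LCAT. The ranges of OVX and Vec overlapped, whereas Vec and Sham did not overlap, nor did Sham and LCAT. OVX and Sham livers belong to the surgery experiment and LCAT and Vec livers to the vector experiment. An order across them also holds any other difference between the experiments.

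**Figure D3:**
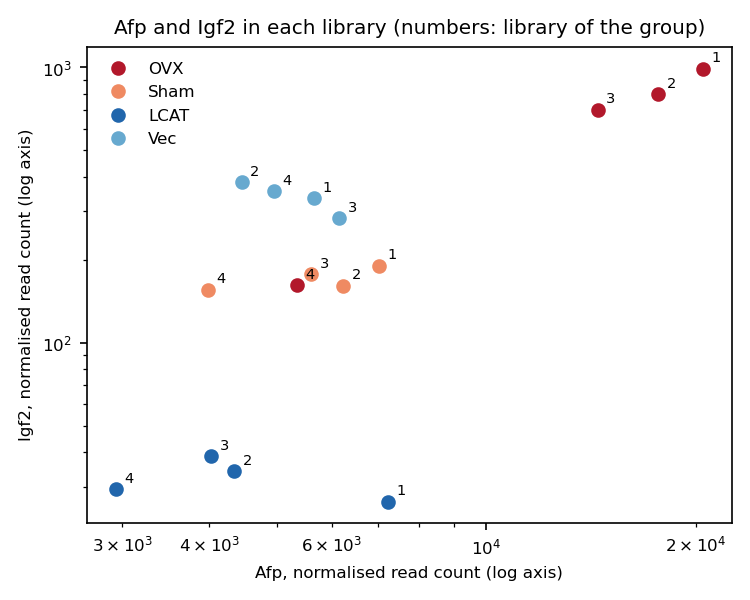
Normalised read counts of Afp (x axis, log) and Igf2 (y axis, log) in the 16 libraries, coloured by group and numbered within it. OVX libraries 1 to 3 sit at the upper right and OVX library 4 among the Sham libraries, while the LCAT libraries sit at 26.4 to 38.6 for Igf2 and span the Vec range for Afp.

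Among 18 tested receptors, binding proteins and signalling genes of the IGF pathway, 7 rose and 6 fell after ovariectomy. Igf1, the postnatal liver-derived growth factor gene, had a log2 fold change of -1.27 (adjusted p = 3.55e-05, limma). Irs2, an adaptor of the insulin receptor, had -2.38, and Igfbp1, a binding protein secreted by hepatocytes, -1.35, whereas Igfbp6, whose product prefers IGF2, had 2.29 (adjusted p = 0.000437). After LCAT 6 of the 18 rose and 5 fell. Igfbp3, the main carrier of IGFs in plasma, averaged 884 ± 69.6 in LCAT livers and 5016 ± 152 in Vec livers (SD, n = 4 each), a log2 fold change of -2.51 (adjusted p = 7.26e-07, limma). Igfals, the third partner in that plasma complex, averaged 867 ± 74.97 in LCAT livers and 184 ± 18.0 in Vec livers, a log2 fold change of 2.23 (adjusted p = 3.79e-06). These 2 genes of 1 complex therefore changed in opposite directions.

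Spink1 encodes a secreted inhibitor of trypsin that pancreatic acinar cells make and that liver tumours can also make. It covers 43728082 to 43737557 of chromosome 18, minus strand. Spink1 had 1014, 1044, 854 and 859 normalised reads in OVX livers, against 238, 323, 312 and 303 in Sham livers. Every OVX library was above every Sham library, with a log2 fold change of 1.68 (SE 0.119, adjusted p = 6.28e-05, limma, exact permutation p = 0.0286).

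In LCAT livers Spink1 had 2005, 613, 479 and 168 normalised reads, against 778, 828, 1214 and 926 in Vec livers. LCAT library 1 held the highest value of the 16 and LCAT library 4 the lowest, an 11.9-fold range within 1 group. Over all libraries the log2 fold change was -0.72 (95% interval -2.16 to 0.73, adjusted p = 0.384, limma), and -1.33 without LCAT library 1 (adjusted p = 0.0358). The sum of pancreatic acinar markers fell in the same order of LCAT libraries, as did Afp, Golm1, Gpc3 and Msln. The 11 markers other than Cela1, which was left out after its values were seen because every liver held it, summed to 408, 187, 117 and 0 in LCAT libraries 1 to 4. Their sums reached at most 4.40 in OVX, 5.27 in Sham and 3.29 in Vec libraries. Even so, Spink1 in every Vec library lay above that in every LCAT library except library 1. Of all 12 acinar markers, 1, 0, 3 and 11 were at 0 in LCAT libraries 1 to 4, and 10 or 11 in each of the other libraries. Their part in the Spink1 values of the LCAT livers was not tested, whereas in the OVX and Sham livers these markers were at or near 0.

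Of the growth factor ligands, receptors and other genes listed around Spink1, 1 of 11 tested rose and 1 fell after ovariectomy, and the trypsin genes Prss2, Try4 and Try5 were too low to be tested. The 1 that rose was the cytokine gene Il6, with a mean of 278 ± 198 in OVX livers and 1.79 ± 2.58 in Sham livers (SD, n = 4 each, adjusted p = 0.00356, limma). Its OVX values were 419, 440, 240 and 13.8, so OVX library 4 lay far below the others. Il6ra, the gene of the receptor for this cytokine, fell by 0.73 on the log2 scale. After LCAT 2 rose and 5 fell. Areg, the gene of the EGF receptor ligand amphiregulin, averaged 4.70 ± 4.63 in LCAT livers and 229 ± 21.8 in Vec livers (log2 fold change -5.80, adjusted p = 0.000309, limma). F2rl1, the gene of a trypsin-activated receptor, had a log2 fold change of -1.91 (adjusted p = 0.000235).

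**Figure D4:**
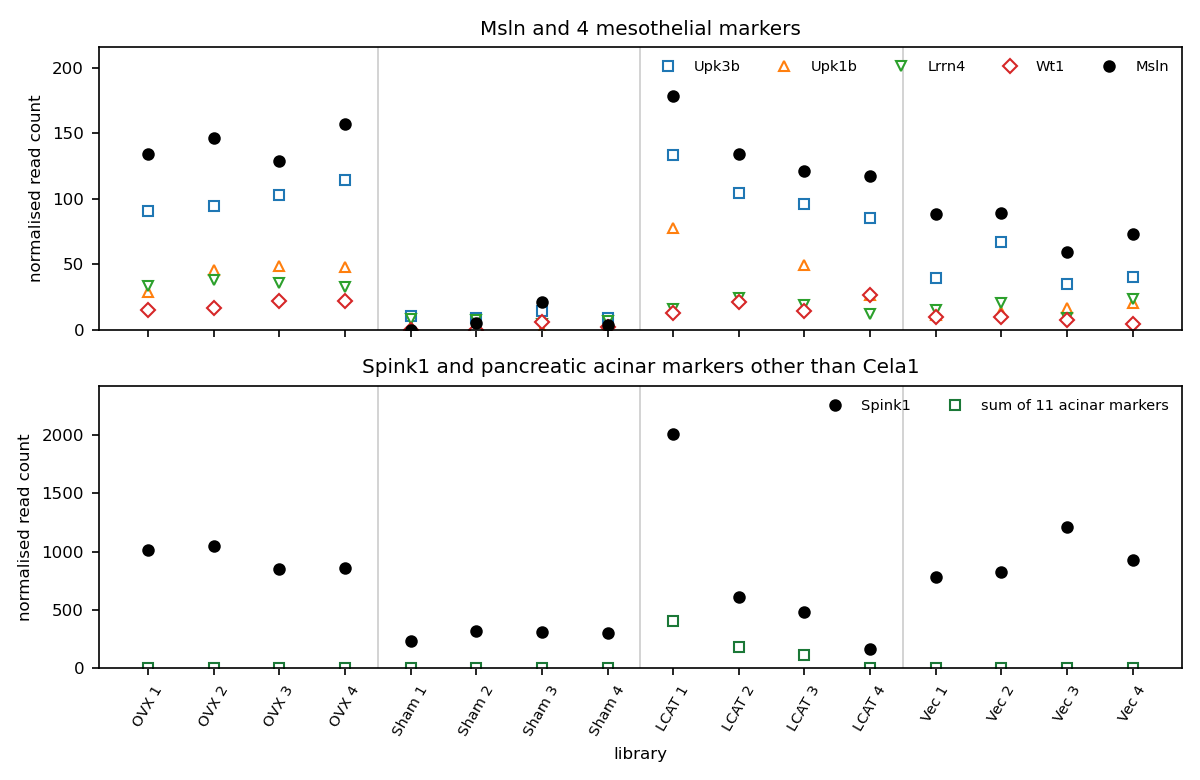
Normalised read counts in each of the 16 libraries. The upper panel shows Msln with 4 mesothelial markers, which are low together in the Sham livers, and the lower panel shows Spink1 with the sum of 11 pancreatic acinar markers, which is 408 in LCAT library 1, 0 in LCAT library 4 and at most 5.27 in any OVX, Sham or Vec library.

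Golm1 encodes GP73, a Golgi membrane protein that is cleaved, secreted and raised in the serum of patients with liver disease and liver cancer. It covers 59634626 to 59675811 of chromosome 13, minus strand. Golm1 had 2108, 2012, 2134 and 2147 normalised reads in OVX livers, against 1162, 992, 916 and 936 in Sham livers. In LCAT livers it had 1108, 1049.9, 955 and 939.5, against 1847, 1753, 1657 and 1683 in Vec livers. Neither pair of groups overlapped, with OVX above Sham in the surgery experiment and LCAT below Vec in the vector experiment. The log2 fold change was 1.07 (SE 0.0841, adjusted p = 9.29e-05, limma) after ovariectomy and -0.78 (SE 0.0844, adjusted p = 0.000252) after LCAT. Exact permutation gave 0.0286 in both. Golm1 shares 1297 exon bases with Naa35 on the opposite strand, and the sources used here do not say whether reads were counted by strand. Naa35 fell after ovariectomy, with a log2 fold change of -0.29 (adjusted p = 0.0364), and its 0.16 after LCAT did not pass (adjusted p = 0.240).

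Other Golgi genes did not share the rise of Golm1 after ovariectomy: 3 of 23 rose and 5 fell, although 8 rose and 3 fell with equal library totals. After LCAT 0 of the 23 rose and 12 fell, with a median log2 fold change of -0.37, and 14 fell with equal totals. Limma gave the same 0 and 12 at an unadjusted p below 0.05, as did edgeR and DESeq2 at an adjusted one. B4galt1, a galactosyltransferase gene, had a log2 fold change of -0.82 after LCAT (adjusted p = 0.000114, limma). Mgat5, whose enzyme branches N-glycans, followed Golm1 in both comparisons, with 0.47 after ovariectomy (adjusted p = 0.00255) and -1.29 after LCAT (adjusted p = 0.000300).

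Glypican 3, the product of Gpc3, is a heparan sulfate proteoglycan anchored in the cell membrane that binds growth factors such as Wnts. Its gene spans 52272426 to 52613950 of the X chromosome on the minus strand. Gpc3 had 3379.5, 3557, 3599 and 3821 normalised reads in OVX livers, against 1494, 1941, 2164 and 2756 in Sham livers. All OVX libraries were above all Sham libraries, and the Sham libraries were spread 1.84-fold. On the log2 scale Gpc3 rose by 0.81 (SE 0.164, adjusted p = 0.00593, limma, exact permutation p = 0.0286). In LCAT livers Gpc3 had 2862, 1978, 1771 and 1321, against 2540.2, 2009.9, 2558 and 2221 in Vec livers. LCAT library 1 was the highest of the 8 and LCAT libraries 2 to 4 were the 3 lowest. Its log2 fold change was -0.28 (95% interval -0.77 to 0.21, adjusted p = 0.316), and -0.48 without LCAT library 1 (adjusted p = 0.0320).

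Among 19 tested glypicans, syndecans and heparan sulfate enzymes, 2 rose and 8 fell after ovariectomy, or 6 and 6 with equal library totals. Gpc1, a glypican gene, fell by 1.24 on the log2 scale (adjusted p = 2.70e-05, limma), the opposite direction to Gpc3. After LCAT 2 rose and 7 fell, among them Gpc6, which encodes another glypican (log2 fold change -1.42, adjusted p = 0.000204). Notum, whose enzyme inactivates Wnts and whose gene is itself a Wnt target, had 4.13 after LCAT (adjusted p = 0.000251) and -1.08 after ovariectomy (adjusted p = 0.000921).

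Msln encodes mesothelin, a surface protein of the mesothelial lining that is also made by several carcinomas. It covers 25748613 to 25754378 of chromosome 17, minus strand. Msln had 134, 147, 129 and 157 normalised reads in OVX livers, against 0, 5.04, 21.3 and 3.65 in Sham livers. The Sham values were close to 0 and all OVX values were far above them. The log2 fold change was 4.83 (SE 0.787, adjusted p = 0.00230, limma, exact permutation p = 0.0286). With so few Sham reads the size was uncertain: it was 3.83 with a pseudocount of 5, 4.06 without Sham library 1, 5.55 without Sham library 3 and 6.09 with libraries 1 and 4 alone, where it did not pass. In LCAT livers Msln had 179, 134, 121 and 117, against 88.6, 89.0, 59.2 and 73.4 in Vec livers. These groups did not overlap either, with a log2 fold change of 0.82 (SE 0.189, adjusted p = 0.00979), but this call was lost when all 16 libraries shared 1 estimate of the spread (adjusted p = 0.282).

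Several listed mesothelial markers were high in the same groups as Msln, though not all of them after LCAT. Upk3b, a uroplakin gene that marks mesothelium, had 90.9, 94.5, 103 and 114 normalised reads in OVX livers, against 10.5, 9.23, 14.5 and 9.13 in Sham livers. It had 134, 105, 96.0 and 84.99 in LCAT livers, against 39.5, 67.1, 35.1 and 40.2 in Vec livers. The list's 12 markers other than Krt8, Krt18, Krt19 and Cpe, which were left out after their values were seen because other liver cells make them, summed to 332 to 378 in OVX, 32.9 to 64.6 in Sham, 291 to 384 in LCAT and 140 to 216 in Vec libraries. Of the whole list, 10 of 11 tested markers rose and 0 fell after ovariectomy by limma (0 also at an unadjusted p below 0.05, and by edgeR and DESeq2), and 6 of 12 rose and 3 fell after LCAT. The 3 that fell were Krt8, Krt18 and Cpe, all left out of the sum above, whereas the left-out Krt19 rose. Lrrn4, Pdpn and Aldh1a2 did not pass after LCAT. Sums over the whole list averaged 26369 in OVX, 18980 in Sham, 16930 in LCAT and 34073 in Vec livers. Between 4 and 6 of the 16 markers were at 0 in each Sham library, and 0 in each OVX library. The part of mesothelial cells in the Msln values was not tested.

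Prom1 encodes prominin-1 (CD133), a membrane protein of bile duct and liver progenitor cells that is used to mark tumour-initiating cells. It covers 43993620 to 44102032 of chromosome 5, minus strand. Prom1 had 1120.1, 1265, 1203 and 1149.7 normalised reads in OVX livers, against 817, 812, 781 and 758 in Sham livers. In LCAT livers it had 589.6, 749, 837 and 804, against 509.8, 477, 498 and 474 in Vec livers. Both treated groups lay above their controls without overlap, and LCAT library 1 was the lowest of its group. The log2 fold changes were nearly equal, 0.58 (SE 0.0645, adjusted p = 0.000399, limma) after ovariectomy and 0.59 (SE 0.118, adjusted p = 0.00489) after LCAT, each with an exact permutation p of 0.0286.

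The biliary and progenitor surface genes listed beside Prom1 gave 6 higher and 1 lower of 19 after ovariectomy, and 9 higher and 4 lower after LCAT. Krt19, a keratin gene of bile ducts, averaged 409.8 ± 103 in LCAT livers and 31.8 ± 9.88 in Vec livers (SD, n = 4 each), with a log2 fold change of 3.65 (adjusted p = 2.74e-05, limma). Epcam, an adhesion molecule gene of bile duct cells, had 2.88 (adjusted p = 0.000349). Spp1, the osteopontin gene, had 1.96 after ovariectomy (adjusted p = 0.00209) and -1.497 after LCAT (adjusted p = 4.87e-05), so it did not follow Prom1. Of the cholangiocyte markers, 3 of 9 rose and 2 fell after ovariectomy, and 7 of 11 rose and 1 fell after LCAT. Without Spp1, left out after its values were seen because it made up most of the sum, these markers summed to 3986 to 4834 in OVX, 4248 to 4993 in Sham, 3995 to 5769.9 in LCAT and 3649 to 3916 in Vec libraries. Anxa4 and Aqp1 made up most of the remaining sum, so it says little about lower markers. Of these, Krt7 averaged 47.9 in OVX, 14.7 in Sham, 141 in LCAT and 21.9 in Vec livers. Epcam averaged 36.3 in OVX and 36.2 in Sham livers, and Cldn4 13.7 and 14.3. Neither shared the rise of Krt7 after ovariectomy. The part of bile duct cells in the Prom1 values was not tested.

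Cd44 encodes the main receptor for hyaluronan, carried by leukocytes, activated liver cells and many tumour cells. It covers 102811141 to 102901665 of chromosome 2, minus strand. Cd44 had 485, 307, 458 and 384 normalised reads in OVX livers, against 362, 295, 375 and 362 in Sham livers. These groups overlapped, with a log2 fold change of 0.21 (95% interval -0.14 to 0.56, adjusted p = 0.294, limma). With equal library totals it was 0.45 and just passed (adjusted p = 0.0498). In LCAT livers Cd44 had 151, 337, 372 and 346, against 236, 160, 248 and 212 in Vec livers. LCAT library 1 was the lowest of these 8 and the other LCAT libraries were the 3 highest. Its change was 0.43 on the log2 scale (95% interval -0.24 to 1.10, adjusted p = 0.266), and 0.73 without LCAT library 1 (adjusted p = 0.00598).

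Of 19 tested hyaluronan enzymes, Cd44 partners and splicing factors, 10 rose and 3 fell after ovariectomy. Hmmr, the gene of a hyaluronan receptor that acts in mitosis, had a log2 fold change of 4.26 (adjusted p = 7.49e-05, limma), and Lyve1, the hyaluronan receptor gene of liver endothelium, -1.10 (adjusted p = 0.000340). After LCAT 5 rose and 7 fell. Esrp1, whose product splices Cd44 to its epithelial form, averaged 21.9 ± 12.4 in LCAT livers (SD, n = 4) and had 0 reads in all 4 Vec libraries, so it was at least 29.3-fold higher against a floor of 3 reads over the Vec group. The related gene Esrp2 of the same list had far more reads and fell. It averaged 1170 in LCAT and 1458 in Vec livers (log2 fold change -0.32, adjusted p = 0.0135, limma). Leukocyte markers summed to 2058 to 2174 in OVX, 1413 to 1487 in Sham, 1344 to 1711 in LCAT and 1135 to 1262 in Vec libraries. Within the LCAT group the leukocyte sum was highest in library 1, where Cd44 was lowest. The markers did not share that order. Ly6c2 (213, 90.2, 91.8 and 41.7 in LCAT libraries 1 to 4) and Coro1a (308, 229, 230 and 195) were among those highest in library 1. Ptprc (184, 205, 179 and 192) and Laptm5 (616, 668, 626 and 604) were among those that were not. The part of leukocytes in the Cd44 values was not tested.

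The change after LCAT was then set against the change after ovariectomy in 1 fit over the 16 libraries. The difference was negative and passed for 6 of the 8 genes, against 44.8% of 13166 genes called, 21.9% higher and 22.9% lower. It was -5.05 for Igf2 (adjusted p = 5.12e-06, limma), -4.01 for Msln (0.00146; -5.25 to -3.04 over the alternatives), -2.40 for Spink1 (0.00972), -1.85 for Golm1 (4.10e-08), -1.47 for Afp (0.0255) and -1.10 for Gpc3 (0.00573). All 6 changed more in the positive direction after ovariectomy than after LCAT, including Msln, which rose in both. For Prom1 the difference was 0.01 (95% interval -0.28 to 0.30, adjusted p = 0.946) and for Cd44 0.22 (-0.52 to 0.95, adjusted p = 0.637). The Prom1 difference became -0.41 with equal library totals (adjusted p = 0.0386). The Afp difference did not pass without OVX library 1 or without OVX library 2.

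LCAT library 1 decided several of the LCAT calls. Without it all 8 genes passed, against 44.8% of 13091 genes in the same fit, 22.1% higher and 22.6% lower: Afp, Igf2, Spink1, Golm1 and Gpc3 were lower and Msln, Prom1 and Cd44 were higher. With it, 2 of these were called lower and 2 higher. The 4 genes gained were those in which LCAT library 1 lay on the opposite side of the Vec libraries from LCAT libraries 2 to 4. The library was left out after its values were known, so the 8 calls describe the other 3 libraries and do not replace the test on all 4.

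**Figure D5:**
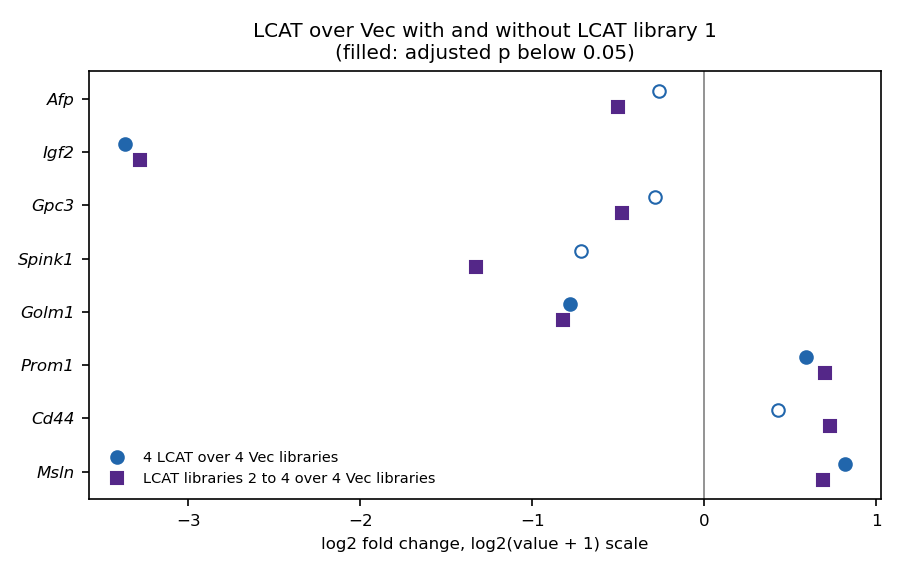
Log2 fold changes of LCAT over Vec, computed as log2(value + 1), for each of the 8 genes, with all 4 LCAT libraries (circles) and with LCAT libraries 2 to 4 (squares). Filled symbols passed an adjusted p of 0.05. All 8 squares are filled, against 4 of the circles, and Spink1 shifts from -0.72 with all libraries to -1.33.

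Levels of different genes were compared as RPKM, reads scaled for exon length and library depth. Afp was the highest of the 8 in all 4 groups. Its RPKM was 237 ± 104 in OVX, 79.0 ± 14.4 in Sham, 67.1 ± 22.7 in LCAT and 88.5 ± 11.8 in Vec livers (SD, n = 4 each). In OVX livers this placed Afp 150th of 16479 genes, against 448th in Sham livers. Gpc3 and Spink1 held the next ranks in every group, at 74.1 ± 5.42 and 71.7 ± 6.22 RPKM in OVX livers. Golm1 followed them and Prom1 came after Golm1 in each group. The 3 lowest were Igf2, Cd44 and Msln, and their order changed with the group. Igf2 was at 6.39 ± 3.35 RPKM in OVX livers, 1.40 ± 0.0914 in Sham livers, 0.279 ± 0.0533 in LCAT livers and 3.34 ± 0.436 in Vec livers. It was the lowest of the 8 in LCAT livers, where Msln had 2.21 ± 0.333, whereas Msln was the lowest in the other groups.

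Between the libraries of a group the genes did not vary alike. In OVX livers Afp and Igf2 were highest in library 1 and lowest in library 4, with a highest over lowest value of 3.83 and 6.10, while Spink1, Golm1, Gpc3, Msln and Prom1 varied by 1.07-fold to 1.22-fold and Cd44 by 1.58-fold. The sum of the proliferation markers ran the other way, at 3093, 3345, 3577 and 4441.5 in OVX libraries 1 to 4, against 768 to 931 in Sham libraries. Mcm2, Mcm5 and Pcna did not, with 519, 357 and 585 in OVX library 1 and 395, 243 and 490 in OVX library 4. The other markers of that list were higher in OVX library 4 than in OVX library 1. All 12 of these markers rose after ovariectomy, and 1 of 12 rose after LCAT. In LCAT livers Afp, Spink1, Golm1, Gpc3 and Msln were highest in library 1 and lowest in library 4, with libraries 2 and 3 between them. Igf2 did not share that order, since LCAT library 1 held its lowest value, on 17 recovered reads.

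Of 24 tested genes that are listed with the 8 as oncofetal or tumour genes, 15 rose and 1 fell after ovariectomy, with a median log2 fold change of 0.62. After LCAT 6 rose and 7 fell, with a median of -0.24, and the list had been drawn up with earlier results of these data known. Ccnd1, the cyclin D1 gene, averaged 2687 ± 414 in OVX livers and 676 ± 229 in Sham livers (SD, n = 4 each), a log2 fold change of 2.04 (adjusted p = 0.000429, limma). Birc5, the survivin gene that is active in mitosis, had 3.29 (adjusted p = 0.000377) and Bmp4, a growth factor gene, 1.498 (adjusted p = 0.000343). After LCAT, Glul, the glutamine synthetase gene of pericentral hepatocytes, averaged 10927 ± 4412 in LCAT livers and 1434 ± 227 in Vec livers, a log2 fold change of 2.83 (adjusted p = 0.000345). Robo1, a guidance receptor gene, had -2.07 (adjusted p = 0.000313) and Scd2, a fatty acid desaturase gene, -1.09 (adjusted p = 0.000262).

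For each of the 8 genes the most alike among 10814 genes with a mean of at least 50 was found by Pearson r of log2(value + 1) over the 16 libraries, as a description without a test. The nearest were Cd47 for Afp (r = 0.94), Lgmn for Igf2 (0.97), Ica1 for Spink1 (0.97), Glipr2 for Golm1 (0.98), Cldn1 for Gpc3 (0.96), Cdca8 for Msln (0.96), Gatm for Prom1 (0.97) and Smc1a for Cd44 (0.89). These values hold the differences between the 4 groups as well as those between libraries. For deviations from the group means alone, r stayed at 0.94 for Cd47 with Afp, 0.96 for Ica1 with Spink1 and 0.92 for Cldn1 with Gpc3. It was 0.53 for Glipr2 with Golm1 and 0.58 for Gatm with Prom1, whose likeness lay more between the groups.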

How the data were processed

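The 16 mouse liver libraries were made from TRIzol-extracted, polyadenylated RNA by a BGI method, per the labels' protocols. The submitters' processing notes name FastQC, HISAT2, SAMtools, StringTie and the build mm10. No source used here names the counting tool, its strand setting or its treatment of shared reads. The deposited table holds a signal per gene and library, namely counts of reads scaled by the authors with a size factor. Multiplying back gave whole reads within 0.01 read for 100% of the values, and the factors were those of the median-of-ratios method, which takes most genes as unchanged.

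Of 16793 genes, 16479 matched 1 gene of GENCODE M21 (GRCm38), which gave coordinates and exon lengths; promoter windows came from RefSeq (GRCm38.p6). No sequence is printed for Spink1, and Msln had no match. Each comparison took its own 8 libraries and every gene averaging 10 or more in them. The values, as log2(value + 1), were fitted by limma 3.58.1 (R 4.3.3) using a prior both trended and robust. Adjusted p-values are Benjamini-Hochberg values over all genes tested, with a threshold of 0.05. Adding 1 shrinks the changes of low genes on this scale. Fold changes here compare means of log values, so they can lie above or below the ratio of group means. That ratio was 18.9 for Msln after ovariectomy, less than its log2 fold change of 4.83 implies. The difference of both changes was fitted over 16 libraries, and exact two-sided permutation tests used mean log2(value + 1). The script was checked on simulated data in which few genes changed and libraries were independent, which need not hold here.

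The 8 genes and the lists were chosen with earlier results of these data known. The text names the 8 genes, Lcat, Alb, Naa35 and Esrp2, genes taken from the up to 4 with the smallest p past the threshold per pathway list and comparison, marker genes, and the most alike gene. Upk3b and the other marker genes named singly, Esrp2, Naa35 and the shortened marker lists were chosen after their values were seen. Marker lists of Kupffer, stellate and endothelial cells were also summed: 1 of 12 rose and 3 fell, 8 rose and 2 fell, and 1 rose and 6 fell after ovariectomy; 10 rose and 2 fell, 5 rose and 2 fell, and 7 rose and 2 fell after LCAT. Of 13 hepatocyte markers limma called 0 higher (2 at an unadjusted p below 0.05) and 7 lower after ovariectomy, while 2 were higher with edgeR, with DESeq2 or without OVX library 4 and 3 with equal totals, and 6 rose and 2 fell after LCAT. Leukocyte markers gave 7 higher of 11, and 4 higher and 2 lower of 12. Of the acinar markers 1 was tested after ovariectomy and did not pass, and 2 of 3 rose and 1 fell after LCAT. As alternatives, the pseudocount was 0.5 or 5, the filter was dropped or set to 50, scaling was by TMM or equal totals, and the fit used all 16 libraries, a replicate block or a plain prior. Libraries 1 and 4 were fitted alone, each library was left out in turn, and the recovered reads were tested with DESeq2 1.42.0 and edgeR 4.0.16.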

Additional observations from a re-analysis of the deposited data

Results flagged for a closer look

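In 36 sets of 4 libraries, 9 genes in 4 groups, 3 held a library whose gap to its nearest neighbour, as a share of the group's range, was above Dixon's 95% critical value; chance flags about 1 in 20 such sets. Cd44 was 151 in LCAT library 1, with a gap of 0.843 of the range below the other LCAT libraries, and its change after LCAT passed the test without that library but in none of the other 19 alternatives. Cd44 was 295 in Sham library 2, with a gap of 0.836 of the range. Lcat was 4531 in LCAT library 4, with a gap of 0.839 of the range, and this was still above every Vec library.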

How the results depend on the processing

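In the 2 comparisons each of the 8 genes kept its direction under all 20 alternatives, edgeR and DESeq2 on recovered reads included. With libraries 1 and 4 of each group only, the count called higher after ovariectomy went to 0. Both counts after LCAT and that of the difference also went to 0. In that setting 0 genes of the table were called after ovariectomy and 3 after LCAT. For the difference, 53 were called higher and 44 lower of 13135. Fewer libraries entered each fit. Without a trended and robust prior the call for Afp after ovariectomy was lost (adjusted p = 0.0527). With all 16 libraries in one fit, 1 gene, Prom1, was called higher after LCAT. Leaving out 1 library at a time gave 5 to 7 genes higher and 0 lower after ovariectomy, 2 to 3 higher and 2 to 5 lower after LCAT and 5 to 6 for the difference, with 3677 to 6528 and 3903 to 6828 genes of the table called. The difference for Prom1 turned to -0.41 with equal totals and to -0.042 with libraries 1 and 4, and ran from -0.047 to 0.12 with 1 library left out; that for Cd44 turned to -0.21 and -0.22. The cause was not tested. Equal totals moved the median of all genes to 0.24 after ovariectomy and -0.18 after LCAT, and the share of calls that were higher to 78.7% (48.0% as deposited) and 31.1% (49.7%). Correlations of same-numbered deviations ran from -0.06 to 0.04 in the surgery and from -0.03 to 0.12 in the vector experiment. Differently numbered libraries of the vector experiment reached -0.18 and 0.19. Such values showed no pairing by replicate number but cannot exclude one. With a replicate block 4339 and 4558 genes were called, and the counts for the 8 genes were 7 higher, then 2 higher and 2 lower, and 6 for the difference. Reads were few for Msln in Sham livers, at 0 in 1 library, and for Igf2 in LCAT livers, at 17, 31, 37 and 19 in libraries 1 to 4.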
